A study of Mus musculus with 8 samples.

Results

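The mitotic spindle, kinetochore and checkpoint genes described here are 38 mouse genes that carry a cell from the onset of mitosis to the separation of its daughters. They were taken by gene name from a deposited table of 43346 genes. Each of the 38 names had 1 row, and all 38 passed the filter on low counts that left 18546 genes for testing. The table holds raw read counts from poly-A RNA of LLC1 cells (Lewis lung carcinoma, a transplantable mouse lung tumour line) and MLE12 cells (a mouse lung epithelial line), with 4 libraries per line. MLE12 cells derive from a transgenic mouse in which the SV40 large T antigen was driven by the surfactant protein C promoter, so that line is an immortalized one and not normal epithelium. Both lines were grown to about 80% confluence and received no treatment, and each is a single line, so a difference between them is a difference between these lines. Whether the libraries within a line are separate cultures is not stated in the labels. The p-values then describe only how far these samples scatter, and that scatter may be technical.

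Mitosis begins when cyclin A and cyclin B activate the kinase CDK1, with CDC25 phosphatases, polo-like and Aurora kinases driving the switch and the transcription factor FOXM1 inducing many of the genes involved. Kinetochores built on the centromere protein CENP-A capture spindle microtubules, and the spindle assembly checkpoint holds the cell until every kinetochore is attached. The anaphase promoting complex with CDC20 then releases separase, and kinesins and PRC1 build the central spindle on which the cell divides. These transcripts are made mainly in late S, G2 and M phase, so their level in a population also reflects how many of its cells are in those phases.

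The LLC1 libraries held 46.8 to 55.3 M counts each, and those of MLE12 held 48.6 to 76.7 M. A member gene had between 1152 and 72225 counts in a library, and its coefficient of variation within a line lay between 0.999% and 10.3%. The most abundant gene, Yam1, took 5.16 to 8.44% of the counts in the LLC1 libraries and 5.59 to 5.92% in those of MLE12. The labels were checked against line markers. The lung epithelial genes Nkx2-1, Sftpc, Sftpb, Cdh1 and Epcam summed to 362 to 385 CPM (counts per M counts of the library, here on plain library totals) in MLE12 and to 1.61 to 1.72 CPM in LLC1. Of 7 macrophage and leukocyte genes, Emr1 and Tyrobp had no count in any library and Ptprc had 2 counts in all. Their sum, carried by Cd68, Csf1r and Cd14, was 29.2 to 30.9 CPM in LLC1 against 19.9 to 23.1 CPM in MLE12. Endothelial genes stayed at 0.572 to 1.09 CPM in LLC1 against 3.54 to 4.18 CPM in MLE12. The fibroblast and smooth muscle list reached 3.23 to 3.89 CPM in LLC1 against 344 to 376 CPM in MLE12, nearly all of it Dcn, the matrix proteoglycan decorin. The part of these levels in the results on mitotic genes was not tested.

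Most mitotic genes differed between the lines by a small amount, and in both directions. With edgeR's quasi-likelihood test and Benjamini-Hochberg adjustment over all genes, 13 of the 38 were higher in LLC1 and 19 were higher in MLE12, while 6 did not pass an adjusted p of 0.05. That is 84.2% called, against 81.6% of all genes tested (40.7% higher in LLC1 and 40.9% higher in MLE12), so the share called is near the background. Those shares of all genes are also the background for the counts by role and by promoter word below. In 31 of the 38 (81.6%) the CPM of the 2 lines did not overlap, against 76.3% of all genes. The differences were small in size. Only Ttk passed a test against a fold of 2 (2.63% of the 38), against 33.7% of all genes and 20.9% of the 6847 genes at least as abundant as the least abundant of the 38. Of the 38, 32 differed by less than 1.5-fold (84.2%), compared with 42.0% of all genes and 56.1% of those 6847, which are not matched to the 38 in abundance. The SD of the log2 fold change was 0.47 across the 38 and 2.56 across all genes.

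**Figure D1:**
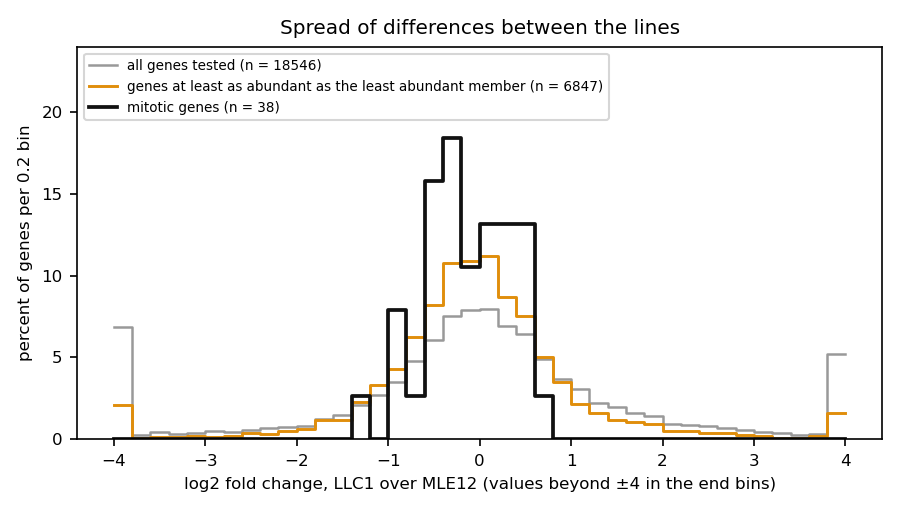
Percent of genes per 0.2-wide bin of log2 fold change (LLC1 over MLE12) for all 18546 genes tested, for the 6847 genes at least as abundant as the least abundant mitotic gene, and for the 38 mitotic genes. The mitotic genes stay between -1.37 and 0.61.

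The median log2 fold change (LLC1 over MLE12) of the 38 genes was -0.11, beside 0.02 for all genes. It was -0.06 for the 6847 genes at least as abundant as the least abundant of the 38. Summed over the 38, the level was 5205 ± 38.8 CPM in LLC1 against 5993.5 ± 121 CPM in MLE12 (mean ± SD, n = 4 each, on library sizes scaled by TMM). A large part of these sums, and of their difference, came from Top2a and Mki67, at 1064 ± 13.4 against 1459 ± 51.7 CPM together. The share of the 38 in all counts was 0.480 to 0.517% in the LLC1 libraries and 0.611 to 0.629% in the MLE12 libraries, with no overlap. In bulk RNA, fewer cells in mitosis and less mitotic RNA per cell cannot be told apart. The median moved with the scaling of the libraries, from -0.21 with library totals alone to -0.05 with upper-quartile factors. All genes moved with it, to -0.08 and 0.07. A scaling shifts every gene by nearly the same amount. The difference between the median of the 38 and that of all genes (-0.13 under each scaling) could therefore hardly change. The filter on low counts did move that difference, to -0.07 with a minimum of 1 CPM in 4 libraries and to -0.19 with no filter. All CPM below are on TMM-scaled library sizes, and log2 fold changes are given ± SE with positive values for higher levels in LLC1.

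**Figure D2:**
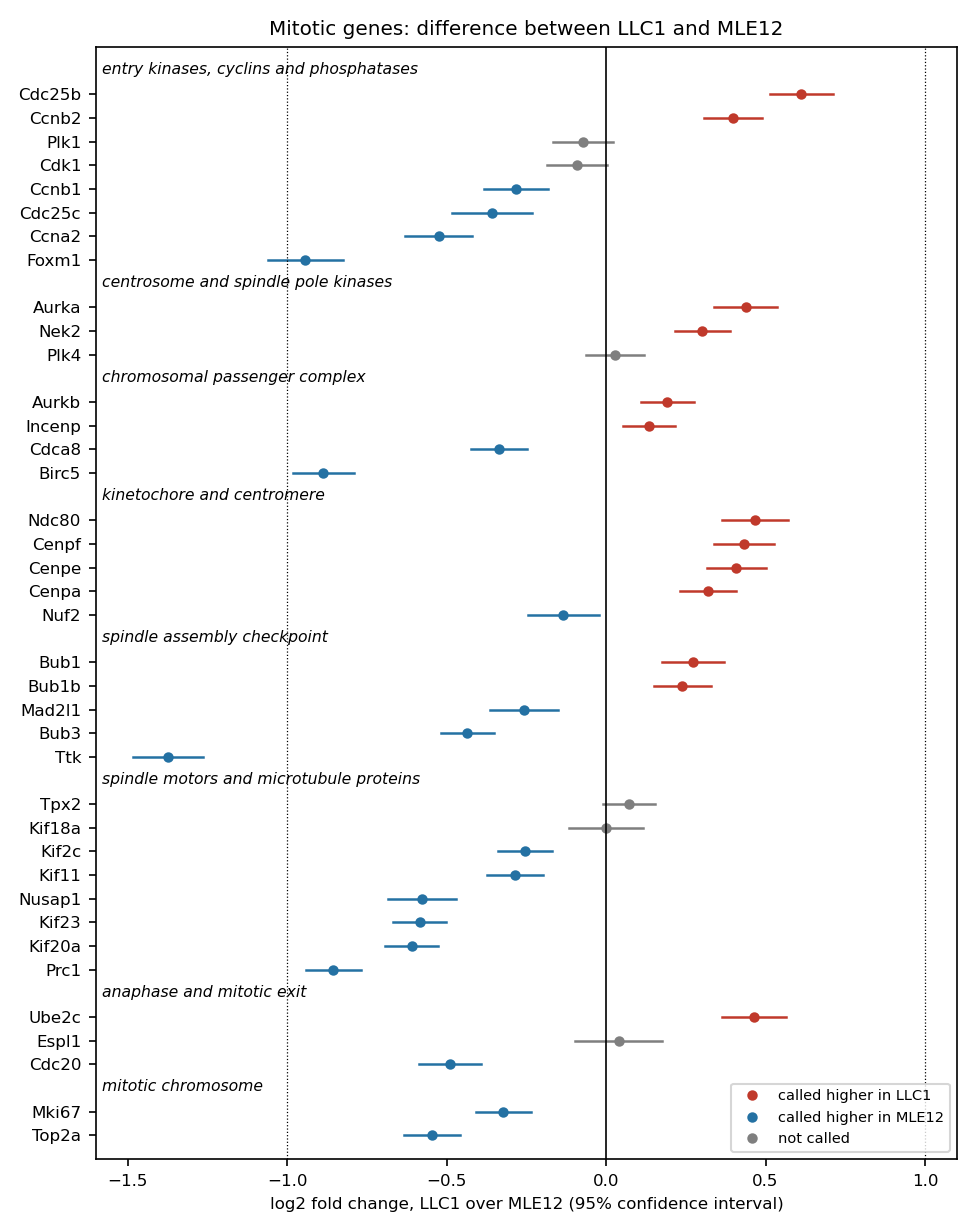
Log2 fold change (LLC1 over MLE12) with its 95% confidence interval for the 38 genes, ordered by role. Kinetochore genes lie mostly to the right (4 of 5 higher in LLC1, beside 40.7% of all genes). Spindle motors and microtubule proteins lie mostly to the left (6 of 8 higher in MLE12, beside 40.9% of all genes). Dotted lines mark a fold of 2, passed in a test by Ttk alone.

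Promoters of these genes are known for a few shared elements. The cell cycle homology region (CHR), TTTGAA or its variant TTTAAA, is the element through which MuvB complexes act on mitotic promoters, and CCAAT is bound by NF-Y. The 4 promoters shown belong to the genes with the largest change in each direction among those with a CHR word. RefSeq promoters (build GRCm38.p6) were found for 31 of the 38 genes, 33 promoters in all, and the 250 bases before the start were searched on both strands. Each sequence reads 5′ to 3′ on the gene's strand, capitals mark CHR words and CCAAT on either strand (TTCAAA and ATTGG are the reverse complements of TTTGAA and CCAAT), and the last base lies next to the start. The deposited table starts Ube2c and Prc1 somewhat further upstream, inside the stretch shown. Ube2c (chr2:164769829-164769928, plus strand) and Cenpf (chr1:189688087-189688336, minus strand) were higher in LLC1. Birc5 (chr11:117848987-117849236, plus strand) and Prc1 (chr7:80294376-80294475, plus strand) were higher in MLE12.
Ube2c: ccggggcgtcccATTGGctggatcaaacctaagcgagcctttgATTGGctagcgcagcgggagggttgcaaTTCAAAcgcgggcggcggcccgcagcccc
Cenpf: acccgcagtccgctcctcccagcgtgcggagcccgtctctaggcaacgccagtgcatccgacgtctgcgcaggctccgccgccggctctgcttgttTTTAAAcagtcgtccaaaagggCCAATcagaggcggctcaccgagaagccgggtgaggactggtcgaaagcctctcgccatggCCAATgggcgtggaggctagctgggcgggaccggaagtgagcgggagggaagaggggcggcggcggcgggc
Birc5: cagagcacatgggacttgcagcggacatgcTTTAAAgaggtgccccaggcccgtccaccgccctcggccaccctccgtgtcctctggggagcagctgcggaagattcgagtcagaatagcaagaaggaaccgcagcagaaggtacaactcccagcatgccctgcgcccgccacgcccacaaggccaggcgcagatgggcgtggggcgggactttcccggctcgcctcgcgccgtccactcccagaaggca
Prc1: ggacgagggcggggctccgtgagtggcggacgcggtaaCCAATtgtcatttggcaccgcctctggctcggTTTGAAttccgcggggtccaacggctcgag

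The CHR word lay 29 bases before the start in Ube2c, 30 in Prc1, 154 in Cenpf and 220 in Birc5. Ube2c, Cenpf and Prc1 also held CCAAT, while the 250 bases of Birc5 did not. CCAAT was present in 75.8% of the 33 promoters, against 33.8% of all 32851 RefSeq promoters. TTTGAA was present in 36.4% against 16%, TTTAAA in 21.2% against 12.1%, and either of them in 54.5% against 25.2%. The E2F words TTTGGCGC or TTTCGCGC were found in the promoters of Cdk1 and Kif18a, 6.06% of the 33 against 0.654% of all. The promoters of the 38 had a median GC content of 59.6%, above the 52.4% of all promoters. Of the 17 genes with a CHR word, 4 were higher in LLC1 and 9 in MLE12, and 4 were not called, with a median log2 fold change of -0.25. Of the 14 genes without one, 7 were higher in LLC1 and 6 in MLE12, and 1 was not called, with a median of 0.12. Genes with the word were thus found in both directions, and the 4 printed sequences were chosen as 2 per direction. With a window of 100 bases, 12 genes had a CHR word, of which 2 were higher in LLC1, 7 in MLE12 and 3 not called. Of the 19 without one there, 9 were higher in LLC1, 8 in MLE12 and 2 not called. These matches are a description of letters and carry no test.

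Of the 8 genes of mitotic entry, 2 were higher in LLC1 and 4 in MLE12 (40.7% and 40.9% of all genes), and 2 were not called. Foxm1, which encodes the forkhead factor that drives G2 and M phase transcription, stood at 87.4, 92.8, 102.2 and 101.6 CPM in LLC1 and at 192.4, 188.8, 189.9 and 167.1 CPM in MLE12. Every MLE12 library was above every LLC1 library, and the log2 fold change was -0.94 ± 0.06 (edgeR adjusted p = 1.1e-11). Foxm1 lies on chr6:128362967-128375893 (mm10) and did not pass the test against a fold of 2. Cdc25b, a phosphatase that activates CDK1, went the other way with the largest increase of the 38, at 113.1, 120.1, 127.9 and 123.4 CPM in LLC1 against 82.3, 81.7, 77.4 and 75.5 CPM in MLE12. The lines did not overlap, as for Foxm1 and for 76.3% of all genes. The log2 fold change of Cdc25b was 0.61 ± 0.05 (edgeR adjusted p = 4.3e-10). Its relative Cdc25c was less abundant and higher in MLE12, with 28.7 ± 2.1 CPM in LLC1 against 36.8 ± 1.88 CPM in MLE12 (log2 fold change -0.36 ± 0.06).

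The cyclins also split. Ccna2, cyclin A2, was at 188.9, 178.3, 178.2 and 170.3 CPM in LLC1 and at 246.2, 244.2, 258.0 and 281.9 CPM in MLE12 (log2 fold change -0.53 ± 0.05, edgeR adjusted p = 9.1e-09). Ccnb1, the main mitotic B cyclin, was at 124.3, 118.8, 116.7 and 114.5 CPM in LLC1 and at 138.3, 136.6, 146.0 and 156.5 CPM in MLE12 (log2 fold change -0.28 ± 0.05). Ccnb2, the second B cyclin, was at 149.6, 138.8, 152.3 and 147.2 CPM in LLC1 and at 109.6, 107.6, 114.0 and 114.8 CPM in MLE12 (log2 fold change 0.40 ± 0.04). None of the 3 cyclins overlapped between the lines (nor did 76.3% of all genes), and the B cyclins moved in opposite directions. Their kinase differed little, with Cdk1 at 173.9, 163.8, 180.2 and 166.7 CPM in LLC1 and at 175.8, 177.4, 184.3 and 191.9 CPM in MLE12. These overlap, and the log2 fold change of Cdk1 was -0.09 (95% confidence interval -0.18 to 0.0016), with an edgeR adjusted p of 0.0648 that fell to between 0.027 and 0.0397 without LLC1 replicate 3, MLE12 replicate 1 or MLE12 replicate 2. Plk1, the polo-like kinase needed for spindle assembly, gave -0.07 (interval -0.17 to 0.02), with 95.9 ± 2.89 CPM in LLC1 against 100.8 ± 4.92 CPM in MLE12. Its edgeR adjusted p was 0.141, and 0.0467 without MLE12 replicate 2.

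Among the 3 centrosome and spindle pole kinases, Aurka and Nek2 were higher in LLC1 and Plk4 was not called. Aurka, the Aurora kinase of the spindle poles, was at 78.3, 81.9, 86.3 and 75.4 CPM in LLC1 and at 60.2, 59.2, 60.4 and 58.0 CPM in MLE12 (log2 fold change 0.44 ± 0.05, edgeR adjusted p = 5.8e-08). Its values did not overlap between the lines, nor did those of 76.3% of all genes. Nek2, which promotes the separation of centrosomes, gave 0.30 ± 0.04. Plk4, the kinase that starts centriole duplication, gave 0.03 with a 95% confidence interval of -0.06 to 0.12.

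The chromosomal passenger complex (Aurora B with INCENP, survivin and borealin) corrects faulty attachments and later acts at the midzone. Its 4 genes did not move together. Birc5, survivin, was at 88.0, 83.6, 87.9 and 81.8 CPM in LLC1 and at 151.7, 151.5, 163.7 and 163.9 CPM in MLE12, so that the lines were far apart (log2 fold change -0.89 ± 0.04, edgeR adjusted p = 6.4e-13). Cdca8, borealin, was also higher in MLE12 (-0.34 ± 0.04). Aurkb, the kinase, was slightly higher in LLC1 (0.19 ± 0.04, with 112.0 ± 1.82 against 98.0 ± 1.68 CPM), and so was its scaffold Incenp (0.14 ± 0.04, with 167 ± 4.55 against 152 ± 1.52 CPM). With library totals alone in place of TMM, Aurkb and Incenp lost their calls (edgeR adjusted p = 0.0781 and 0.49), and Incenp lost it without the filter on low counts as well (0.0777).

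Kinetochore and centromere genes were the role group with the highest median, 0.41, with 4 of 5 higher in LLC1. Cenpf, a large protein of the outer kinetochore corona, was at 239.5, 241.7, 227.5 and 240.6 CPM in LLC1 and at 166.5, 181.0, 186.7 and 169.2 CPM in MLE12 (log2 fold change 0.43 ± 0.04, edgeR adjusted p = 3.8e-08). Cenpe, the kinesin that moves chromosomes to the metaphase plate, was at 159.5, 167.5, 151.9 and 162.0 CPM in LLC1 and at 114.5, 119.9, 125.1 and 123.6 CPM in MLE12 (0.41 ± 0.04). Cenpa, the centromeric histone H3 variant, gave 0.32 ± 0.04. In all 3 genes the lines did not overlap, as in 76.3% of all genes. Ndc80 and Nuf2 encode the 2 proteins whose heads bind the microtubule as a dimer. Ndc80 was at 77.8, 75, 79.7 and 71.9 CPM in LLC1 and at 52.8, 52.3, 58.2 and 56.9 CPM in MLE12 (0.47 ± 0.05, edgeR adjusted p = 4.6e-08). Nuf2 was at 62.8, 59.8, 58.3 and 54.4 CPM in LLC1 and at 61.2, 61.5, 65.9 and 69.5 CPM in MLE12 (-0.13 ± 0.05, edgeR adjusted p = 0.0268). The Nuf2 values overlap, and its call was lost without LLC1 replicate 3 or 4 or MLE12 replicate 3 or 4 (adjusted p between 0.051 and 0.158), with upper-quartile factors (0.187) and with a minimum of 1 CPM in 4 libraries (0.148).

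The spindle assembly checkpoint held the largest difference of the 38. Ttk, which encodes the kinase MPS1 at the head of the checkpoint, was at 26.9, 25.3, 23.8 and 23.9 CPM in LLC1 and at 62.7, 62.1, 66.8 and 67.0 CPM in MLE12. The lines were widely separated, and Ttk was 2.59-fold higher in MLE12 (log2 fold change -1.37 ± 0.05, edgeR adjusted p = 7.1e-15, and 3.6e-07 against a fold of 2). The gene (ENSMUSG00000038379) lies on chr9:83834689-83872389 (mm10). Bub3, which brings the BUB kinases to kinetochores, and Mad2l1, the MAD2 protein that inhibits CDC20, were also higher in MLE12, with log2 fold changes of -0.44 ± 0.04 and -0.26 ± 0.05. The partners that BUB3 recruits went the other way, as Bub1 and Bub1b were higher in LLC1 by 0.27 ± 0.05 and 0.24 ± 0.04. Bub1b, which encodes BUBR1, stood at 184 ± 7.74 CPM in LLC1 against 156 ± 4.07 CPM in MLE12. No checkpoint gene overlapped between the lines, and neither did 76.3% of all genes.

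**Figure D3:**
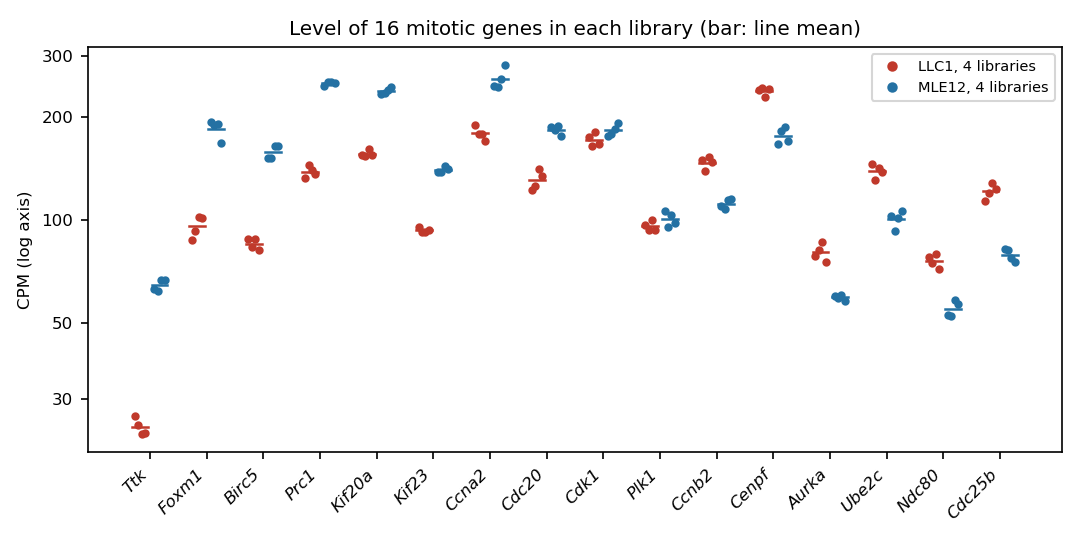
CPM (log axis) of 16 of the 38 genes in each of the 8 libraries, with a bar at the mean of the 4 libraries of a line. Ttk lies at 23.8 to 26.9 CPM in LLC1 against 62.1 to 67.0 CPM in MLE12, while the points of Cdk1 and Plk1 overlap between the lines.

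Of the 8 spindle motors and microtubule proteins, 6 were higher in MLE12 (40.9% of all genes), 0 were higher in LLC1 (40.7%) and 2 were not called (median -0.43). Prc1, which bundles the antiparallel microtubules of the central spindle, was at 132.8, 144.2, 139.5 and 136.1 CPM in LLC1 and at 245.0, 252.2, 251.9 and 250.5 CPM in MLE12 (log2 fold change -0.85 ± 0.04, edgeR adjusted p = 2.1e-13). Kif20a, a kinesin of the midzone, was at 154.3, 153.1, 161.3 and 154.1 CPM in LLC1 and at 232.2, 234.5, 238.6 and 244.6 CPM in MLE12 (-0.61 ± 0.04). Kif23, the motor of the centralspindlin complex, was at 95.4, 92.2, 92.1 and 93.2 CPM in LLC1 and at 137.6, 138.1, 143.2 and 140.4 CPM in MLE12 (-0.58 ± 0.04). These 3 genes of the central spindle were thus each higher in every MLE12 library than in any LLC1 library. Such a lack of overlap, in either direction, was found for 76.3% of all genes. Nusap1, which stabilizes microtubules near chromatin, gave -0.58 ± 0.05. Kif11, the motor that pushes spindle poles apart, and Kif2c, a microtubule depolymerase of the centromere, gave -0.29 ± 0.04 and -0.25 ± 0.04. Tpx2, the activator of Aurora A on the spindle, gave 0.07 (95% confidence interval -0.01 to 0.15) and was called higher in LLC1 without LLC1 replicate 1 (edgeR adjusted p = 0.0423), with upper-quartile factors (0.0046) and with a minimum of 1 CPM in 4 libraries (0.0053). Kif18a, a kinesin that damps chromosome movement, stood at 29.8 ± 0.457 CPM in LLC1 against 29.8 ± 1.99 CPM in MLE12, with an interval of -0.12 to 0.12.

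The 3 genes of anaphase and mitotic exit went 3 ways. Cdc20, the activator of the anaphase promoting complex, was at 122.6, 125.2, 140.2 and 134.0 CPM in LLC1 and at 186.2, 183.4, 187.2 and 176.0 CPM in MLE12 (log2 fold change -0.49 ± 0.05, edgeR adjusted p = 1.1e-08). Ube2c, the ubiquitin-conjugating enzyme of the same complex, was at 145.4, 130.5, 141.9 and 137.7 CPM in LLC1 and at 102.9, 92.6, 101.6 and 105.8 CPM in MLE12 (0.46 ± 0.05, edgeR adjusted p = 4.2e-08). The lines did not overlap for either gene, nor for 76.3% of all genes. Espl1, separase, gave 0.04 with an interval of -0.10 to 0.18, and its MLE12 libraries ranged from 109 to 139 CPM. Both genes of the mitotic chromosome were higher in MLE12. Top2a, the topoisomerase that untangles sister chromatids, was at 617.9, 618.6, 603.6 and 606.2 CPM in LLC1 and at 844.2, 890.6, 916.5 and 923.0 CPM in MLE12 (-0.55 ± 0.04). Mki67, the proliferation marker Ki-67 that coats mitotic chromosomes, was at 445.5, 463.9, 453.4 and 445.5 CPM in LLC1 and at 541.7, 575.4, 591.1 and 552.9 CPM in MLE12 (-0.32 ± 0.04).

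Some of these genes share exon bases with a neighbour, and since the strand setting of the counting is not given in the sources used here, reads of such pairs cannot be told apart. In GENCODE release M21, 13 of the 38 share bases with another gene, and for 10 the partner had more than 5% of the member's counts. Kif20a shares 1271 bases (29.3% of its exons) with Cdc23 on the opposite strand, which had 71.6% as many counts and was itself higher in MLE12 (log2 fold change -0.57). Ccna2 shares 510 bases (12.5% of its exons) with Exosc9, which had 47.6% as many counts and a log2 fold change of -0.02 that was not called. Prc1 shares 911 bases with Rccd1, a gene with 6.07% as many counts. Cdc20, Nusap1, Cdca8, Cdc25b, Kif18a, Nek2 and Foxm1 overlap a partner by 11 to 298 bases. Their values are uncertain to that extent.

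Ratios between related genes within a library do not depend on how libraries are scaled, and 7 pairs were compared. The log2 ratio of Ccnb1 to Ccnb2 was -0.31 ± 0.08 in LLC1 and 0.37 ± 0.05 in MLE12 (mean ± SD, n = 4 each), so the more counted B cyclin differed between the lines. Ndc80 over Nuf2 was 0.37 ± 0.07 in LLC1 and -0.23 ± 0.05 in MLE12, a change of sign of the same kind. Cdc25b over Cdc25c was 2.08 ± 0.14 in LLC1 and 1.11 ± 0.13 in MLE12. Aurka over Aurkb was -0.48 ± 0.08 in LLC1 and -0.72 ± 0.02 in MLE12. In each of these 4 pairs the lines did not overlap, and a two-sided exact permutation test gave p = 0.0286, the smallest that 4 libraries against 4 can give. Adjusted over the 7 pairs by the Benjamini-Hochberg method it was 0.05, which is not under the threshold. For the other 3 pairs the difference between the lines (LLC1 minus MLE12) was -0.10 for Plk1 over Plk4, 0.03 for Bub1 over Bub1b and -0.02 for Kif20a over Kif23. Their exact permutation p-values were 0.114, 0.714 and 0.429 (adjusted 0.16, 0.714 and 0.5).

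**Figure D4:**
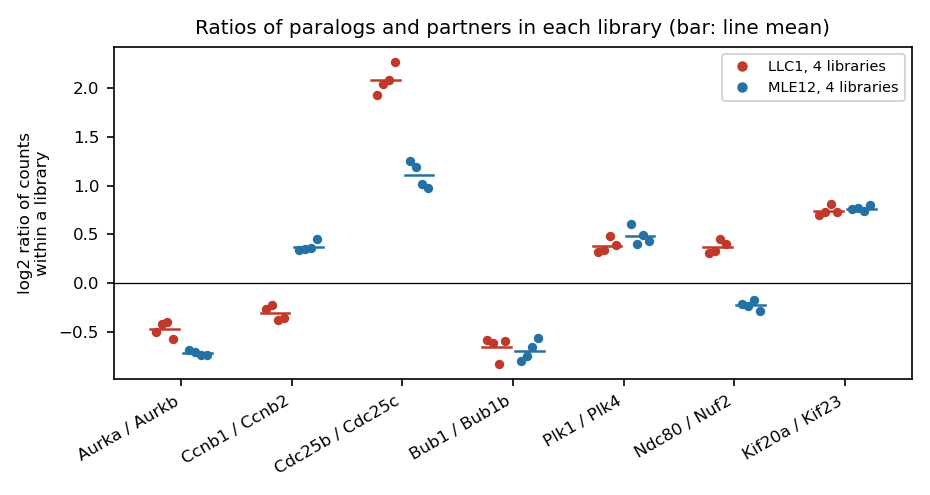
Log2 ratio of the counts of 7 gene pairs within each of the 8 libraries, with a bar at the mean of the 4 libraries of a line. Ccnb1 / Ccnb2 and Ndc80 / Nuf2 lie on opposite sides of 0 in the lines, at -0.31 and 0.37 and at 0.37 and -0.23. Counts are not divided by gene length, so 0 does not mark equal transcript levels.

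Levels of different genes were compared per kilobase of the length that the deposited table gives. For 18 of the 38 genes that length differs from the exon union in GENCODE M21, and the order with the union was computed as well, a choice made after seeing the data. In LLC1 the highest CPM per kb belonged to Ccnb2 (95.4 ± 3.78), followed by Cdc20 (69.9 ± 4.34) and Top2a (67.9 ± 0.864), which lies within the spread of Cdc20. In MLE12 Top2a (99.1 ± 3.97) and Cdc20 (98.1 ± 2.69) came first and did not differ beyond their spread. Ccna2 (73.4 ± 4.94), Bub3 (73.2 ± 0.918) and Ccnb2 (72.4 ± 2.25) followed close together. With the exon union (7006 bases in place of 2055) Bub3 fell to 21.5 ± 0.269 CPM per kb and from place 4 to place 23 in MLE12, and from place 4 to place 27 in LLC1. Mad2l1 (8390 bases in place of 2203) went from place 10 to 31 in LLC1 and from 8 to 29 in MLE12, and Ndc80 (6493 in place of 2201) from 17 to 33 and from 23 to 36. The places of Ccnb2, Cdc20 and Top2a in LLC1 and of Top2a and Cdc20 in MLE12 were the same with either length. Kif18a was the lowest per kb in both lines with either length, at 3.03 ± 0.0465 in LLC1 and 3.03 ± 0.202 in MLE12. Ttk was next to last in LLC1, at 5.08 ± 0.296 CPM per kb, and stood at 13.1 ± 0.527 in MLE12, above Plk4 (12.3 ± 0.3), Cenpf (11.4 ± 0.622) and Nuf2 (10.2 ± 0.624).

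Other genes of the mitotic pathway were read from 10 lists that hold none of the 38, with 170 of 171 genes tested. Of these, 38 were higher in LLC1 and 98 in MLE12, and 34 were not called, with a median log2 fold change of -0.25 (0.02 for all genes). Over all genes tested, 81.6% were called, 40.7% higher in LLC1 and 40.9% higher in MLE12. Those shares are the background for the counts of each list below as well. Past a fold of 2 were 6 of the 170 genes higher in LLC1 and 15 higher in MLE12, a test that 33.7% of all genes passed. The lists that lay lowest were the tubulins (median -0.84), condensin (-0.41) and the MuvB, MYB, E2F and NF-Y regulators (-0.39).

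Kinetochore and centromere genes outside the 38 ranged from -1.47 to 1.31 in log2 fold change. Of 34 such genes, 9 were higher in LLC1 and 18 in MLE12, and 7 were not called (median -0.15). Hjurp, the chaperone that loads CENP-A, was at 360.1 ± 15.7 CPM in LLC1 against 145 ± 3.1 CPM in MLE12 (log2 fold change 1.31 ± 0.04). Mis18a, a subunit of the complex that licenses that loading, was higher in MLE12 (-1.47 ± 0.06), as was Ska3 (-1.14 ± 0.05), a subunit of the complex that couples kinetochores to microtubule ends. The other checkpoint and centromeric cohesion genes gave 2 higher in LLC1 and 2 in MLE12, and 3 not called, from Tpr (0.22) and the shugoshin gene Sgol1 (0.17) to the haspin gene Gsg2 (-0.54) and Mad2l1bp (-1.03), whose product helps to silence the checkpoint.

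Of 18 genes of the anaphase promoting complex and its regulators, 3 were higher in LLC1 and 11 in MLE12, and 4 were not called. The subunits Cdc26 (0.40) and Anapc2 (0.38) were higher in LLC1, and Cdc16 (-0.72) and Anapc10 (-0.86) were higher in MLE12. Condensin, which compacts mitotic chromosomes, gave 2 genes higher in LLC1 (Ncaph2 0.54 and Ncapd2 0.23) and 6 higher in MLE12, among them Smc4 (-0.68) and Ncaph (-0.73). Cohesin and its regulators gave 1 higher in LLC1 (Nipbl, 0.12) and 8 higher in MLE12, with the loader subunit Mau2 at -1.08 and the acetyltransferase Esco2 at -0.95. In these 3 lists the log2 fold changes stayed within -1.08 and 0.54.

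Of 21 other spindle and cytokinesis genes, 4 were higher in LLC1 and 14 were higher in MLE12. The depolymerase Kif2a (1.02 ± 0.06), a paralog of Kif2c, and the minus-end motor Kifc1 (0.60 ± 0.05) were higher in LLC1, whereas Dlgap5 (-0.89 ± 0.04) and Kif18b (-0.88 ± 0.05), a paralog of Kif18a, were higher in MLE12. Of 21 centriole, centrosome and augmin genes, 4 were higher in LLC1 and 11 were higher in MLE12. Aspm, a spindle pole protein, was at 178 ± 6.79 CPM in LLC1 against 78.7 ± 3.5 CPM in MLE12 (1.18 ± 0.05), and the augmin subunit Haus7 was also higher there (0.81). Cenpj, which sets centriole length, was at 9.49 ± 0.834 CPM in LLC1 against 36.6 ± 1.66 CPM in MLE12 (-1.95 ± 0.07), and Haus8, another augmin subunit, moved the same way (-1.44). Among 14 other entry regulators, 4 were higher in LLC1, led by Ccnf (0.73) and Cks1b (0.33), and 7 were higher in MLE12, led by the phosphatase subunit Ppp2r2a (-0.89) and the kinase Melk (-0.76).

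**Figure D5:**
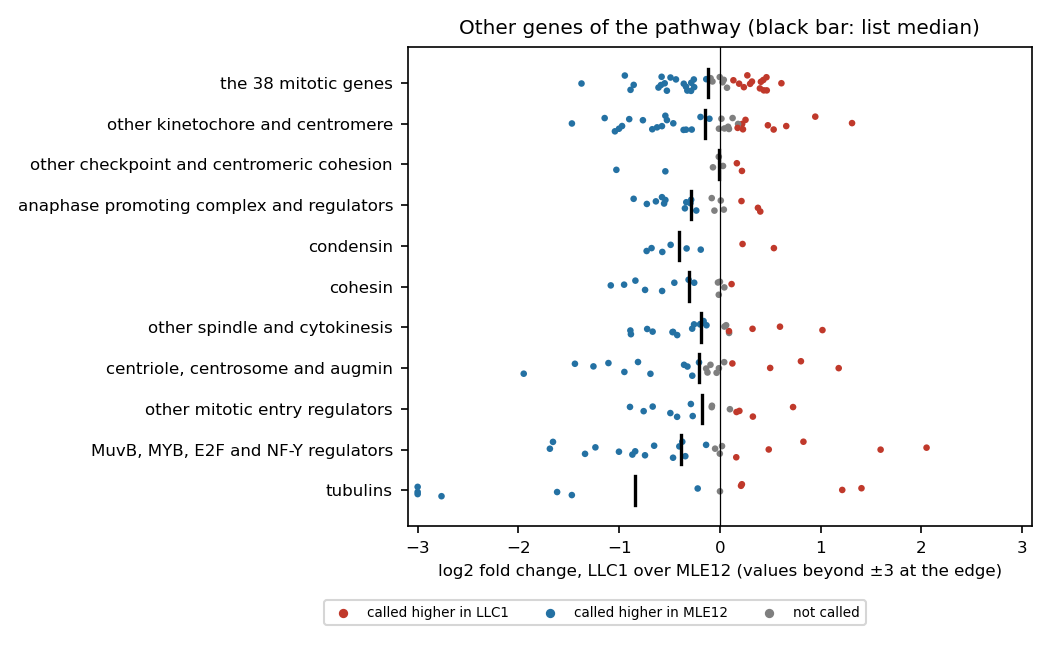
Log2 fold change (LLC1 over MLE12) of each tested gene in 10 other lists of the mitotic pathway below the 38 mitotic genes, with a bar at each list's median and values beyond 3 drawn at the edge. The medians of the 10 lists run from -0.84 for tubulins to -0.01 for the other checkpoint genes.

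For factors that act on mitotic and S phase promoters the median absolute log2 fold change was 0.70, beside 0.35 for the 38 genes and 0.74 for all genes. Of 22 MuvB, MYB, E2F and NF-Y genes, 5 were higher in LLC1 and 14 in MLE12, and 3 were not called. The repressor genes E2f6 (53.8 ± 1.97 against 13 ± 0.649 CPM, log2 fold change 2.05 ± 0.05) and E2f8 (133 ± 6.5 against 44.1 ± 1.8 CPM, 1.6 ± 0.05) were higher in LLC1. E2f7, the repressor most closely related to E2f8, is named here after its values were seen and went the other way, at 22.5 ± 1.47 CPM in LLC1 against 56.9 ± 1.05 CPM in MLE12 (-1.34 ± 0.05). The dimerization partners of E2F factors were higher in MLE12, Tfdp1 at 155 ± 9.61 CPM in LLC1 against 488 ± 13.5 CPM in MLE12 (-1.66 ± 0.05), and Tfdp2 with -1.69 ± 0.05. Of 12 tubulin genes tested, 4 were higher in LLC1 and 7 were higher in MLE12. Tubb4a and Tubb3, tubulins best known from the nervous system, were at 2.18 ± 0.432 and 4.02 ± 0.497 CPM in LLC1 and at 564.5 ± 10.3 and 71.8 ± 2.88 CPM in MLE12. Tubb6 (1.41 ± 0.05) and Tuba4a (1.22 ± 0.05) were higher in LLC1.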

How the data were processed

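Poly-A RNA of LLC1 and MLE12 cells was sequenced as paired-end reads, per the labels' protocols. The deposited table holds raw read counts per gene, and the submitters' processing notes name CASAVA, TopHat2, featureCounts and edgeR and the genome build mm10. Versions, strand setting and annotation release are not given in the sources used here. Groups come from the cell line in the labels. Genes were kept by filterByExpr, scaled by TMM (factors 0.924 to 1.04) and compared with glmQLFit (robust) and glmQLFTest in edgeR 4.0.16 (R 4.3.3), with no covariate. The Benjamini-Hochberg adjustment ran over 18546 genes, calls were made under 0.05, and glmTreat tested against a fold of 2. The scripts were tested on simulated data. Libraries of 1 line differed beyond sampling noise (chi-square per degree of freedom from 6.35 to 53.1), so none was deposited a second time.

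Alternatives were other scalings, DESeq2 1.42.0, limma 3.58.1 (voom), other filters, a replicate block, removal of the 20 most abundant genes, leaving out each library and, added after seeing the data, exon-union lengths. All 38 members are named. From each other list up to 2 called genes per direction with the largest change are named, if they reach 5 CPM in the higher line (1 gene that meets this is not reported here), and up to 4 promoters with a CHR word (the 2 members with the largest change per direction) are printed. The members and lists were chosen with earlier results of these data known. GENCODE M21 and RefSeq promoters served for exon overlaps and sequences. Libraries were PCR-amplified and carried no molecular identifiers.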

Additional observations from a re-analysis of the deposited data

Results flagged for a closer look

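In 9 of 76 sets of 4 libraries (38 genes in 2 lines), 1 library stood apart from the other 3 by more than Dixon's critical value for 4 samples, where chance marks about 1 set in 20. MLE12 replicate 4 was low for Foxm1, at 167 CPM beside 189 to 192 CPM, and high for Mad2l1, at 137 CPM beside 118 to 120.4 CPM. MLE12 replicate 3 was high for Nek2, at 86.1 CPM beside 81.8 to 82.2 CPM, and for Aurkb, at 100.5 CPM beside 97.0 to 97.3 CPM. LLC1 replicate 3 was low for Cenpf, at 228 CPM beside 239.5 to 242 CPM. It was high for Bub3, at 116 CPM beside 109 to 110.04 CPM, and for Kif20a, at 161 CPM beside 153 to 154 CPM. LLC1 replicate 4 was low for Kif2c, at 76.8 CPM beside 81.1 to 81.6 CPM, and LLC1 replicate 1 was low for Espl1, at 120.2 CPM beside 133 to 136 CPM. The standing-apart libraries of Foxm1, Mad2l1, Nek2, Aurkb, Cenpf, Bub3, Kif20a and Kif2c all remained on their own line's side of the other line's values. Espl1 was not called, and its lines overlap.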

How the results depend on the processing

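Of the 38 genes, 29 kept their call and direction under all 18 alternatives (11 higher in LLC1 and 18 higher in MLE12). The 9 that did not were Aurkb, Cdk1, Espl1, Incenp, Kif18a, Nuf2, Plk1, Plk4 and Tpx2, and the cause was not tested. The median log2 fold change of the 38 was -0.11. It was -0.213 with library totals alone, -0.0547 with upper-quartile factors, -0.155 without the filter, -0.0616 with at least 1 CPM in 4 libraries, and -0.144 to -0.0794 with each library left out. Genes near 0 changed sign. With library totals alone Plk4 gave -0.0733, Tpx2 -0.0267 and Espl1 -0.0583, and without the filter Plk4 gave -0.0153 and Espl1 -0.0029. Kif18a gave 0.0578 with upper-quartile factors, 0.0054 with limma-voom, 0.0507 with at least 1 CPM in 4 libraries, and -0.0566 to 0.0176 with each library left out, while Espl1 gave -0.0347 to 0.0979. Cdk1 and Plk1 were called higher in MLE12 with library totals alone (adjusted p = 0.0011 and 0.0039) and without the filter (0.0103 and 0.035), and Cdk1 with the 20 most abundant genes removed (0.0445). Whether the replicate numbers pair the samples cannot be told from correlations across genes. These were -0.04, 0.15, 0.13 and -0.15 for same-numbered libraries, and ran from -0.14 to 0.18 for libraries of different number. With a replicate block 13 genes were higher in LLC1 and 18 in MLE12, Nuf2 was no longer called (adjusted p = 0.0635), and Kif18a gave 0.00042. With each library left out (3 against 4, smallest exact permutation p 0.0286), 0 of the 7 ratios had an adjusted p under 0.05, as with all libraries. Dropping a library leaves the smallest possible p at 0.0286, so with 4 pairs at that value the adjusted p could not fall below 0.05. The exact p stayed at 0.0286 for Ccnb1 over Ccnb2, Cdc25b over Cdc25c and Ndc80 over Nuf2, and was 0.0571 for Aurka over Aurkb without MLE12 replicate 3 or 4. Rows of a repeated name did not occur among these genes, so summing such rows, 1 of the 18 alternatives, could change no call. With a window of 100 bases the share of member promoters with CCAAT was 66.7% (18.9% of all), with TTTGAA 27.3% (5.77%) and with TTTAAA 9.09% (4.39%).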

Other observations

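The 38 genes lie on 15 chromosomes, and their direction differed between some of them. Chromosome 2 held 8 of them, of which Cdc25b, Ube2c, Aurka, Bub1 and Bub1b were higher in LLC1, Nusap1 was higher in MLE12, and Tpx2 and Kif18a were not called. The 558 other genes of that chromosome that are at least as abundant had a median log2 fold change of 0.06. All 3 genes on chromosome 4 (Kif2c, Cdca8 and Cdc20) and 3 of 4 on chromosome 7 (Mki67, Bub3 and Prc1) were higher in MLE12, where the other abundant genes had medians of -0.26 and -0.16. Elsewhere genes went against their chromosome. Mad2l1 and Foxm1 on chromosome 6 and Ccnb1 on chromosome 13 were higher in MLE12, beside medians of 0.10 and 0.05 for the other abundant genes. Cenpa on chromosome 5 was higher in LLC1, beside a median of -0.31. Over the chromosomes these medians ran from -0.83 to 0.42. Across the 38 genes, the log2 fold change had a correlation of r = 0.34 with the median of the gene's chromosome and of r = 0.35 with the median of its neighbours within 5 Mb. Genes on a chromosome share that median and all come from the same 8 libraries, so these are descriptions. Ttk lay 1.33 below the median of its neighbours (difference -1.33) and Foxm1 0.89 below (difference -0.89).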
